A study of Mus musculus with 19 samples.

Results

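The genes described here encode proteins of the cytosolic ribosome, followed through the forebrain transcriptome of EphA4 knockout mice and of their wild-type littermates. EphA4 is a receptor tyrosine kinase for ephrins that guides axons and shapes synapses. Members were all rows of the expression table that carried a gene symbol of the Rpl or Rps families, including the stalk proteins Rplp0, Rplp1 and Rplp2, also where other symbols stood beside it. Of 8751 probe sets (groups of probes summarised to 1 value), 88 met this rule. Because 7 of them repeated the values of another, 81 distinct probe sets remained, 59 for the large (60S) subunit and 22 for the small (40S) subunit. They stood for 43 genes, 30 of the large and 13 of the small subunit, and Rplp0 was not among them. Ribosomal protein genes without a named probe set are not covered by the results below. The animals were of a mixed strain background labelled Mixed BL6/10 and were kept on a cycle of 12 h light and 12 h dark. Total RNA from the forebrain was hybridised to Affymetrix Mouse Gene 2.0 ST arrays. The 4 groups were undisturbed wild-type controls (4 arrays), wild-type mice deprived of sleep for 6 h (6 arrays), undisturbed EphA4 knockout controls (4 arrays) and knockout mice deprived of sleep for 6 h (5 arrays). Each array was labelled as a sample of its own, but the labels do not state separate animals, and the p-values below speak only of the scatter among these arrays.

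A ribosome joins a small subunit, which decodes the messenger RNA, to a large subunit, which forms the peptide bond. Each subunit holds ribosomal RNA and one copy of most of its proteins, so cells make these proteins in matched amounts. Their messages usually begin with a cytosine followed by a run of pyrimidines, the terminal oligopyrimidine or TOP motif, through which mTOR signalling sets their translation. Ribosomal protein S6, encoded by Rps6, is phosphorylated downstream of mTOR, and its phosphorylated form is a common marker of neuronal activity. The arrays measured RNA and not phosphorylation. Many ribosomal protein genes also have processed pseudogenes of near-identical sequence and introns that hold small nucleolar RNA genes. Control of protein synthesis in the forebrain is one of the processes that has been linked to sleep and to sleep loss, largely through translation.

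Start sites were read from RefSeq promoters of assembly GRCm38.p6, each spanning 250 bases before to 50 bases after the annotated start. The 30-base windows below belong to members that recur in the results (Rpl34, Rpl13, Rpl13a, Rps6 and Rps24) and to Rpl7a, which had the longest run. Capitals mark a run of at least 8 bases made only of C and T, within 25 bases of the start on the gene's own strand.
Rpl34 (chr3:130730330-130730359, minus strand): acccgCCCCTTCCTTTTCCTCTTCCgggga
Rpl13 (chr8:123102324-123102353, plus strand): cgtgacgtcaCTTCCCTTTCgcctgatttt
Rpl13a (chr7:45128722-45128751, minus strand): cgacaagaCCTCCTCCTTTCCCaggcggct
Rpl7a (chr2:26910789-26910818, plus strand): acaaTTCCCTCTTCTTTCTTTCTCCagcag
Rps6 (chr4:86857349-86857378, minus strand): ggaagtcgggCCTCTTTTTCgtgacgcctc
Rps24 (chr14:24490665-24490694, plus strand): cgcgctggggTCCTTCCTTgcgcgttgata

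Of the 43 genes, 34 had an entry, with 41 start sites between them. Such a run lay at 18 of the 41 start sites (43.9%), 12 of 24 for the large and 6 of 17 for the small subunit, against 19.7% of 32851 promoters in the table. The letters CGGAAG, the core bound by ETS-family factors, stood on either strand in 28 of the 41 promoters (68.3%), 17 of 24 and 11 of 17 for the 2 subunits, against 16.9% of all promoters. On the opposite strand that motif reads CTTCCG, which can overlap a pyrimidine run. Among the genes shown, the run lengths went from 21 bases at Rpl7a to 10 at Rps6 and 9 at Rps24. The run of Rpl13 lay wholly before the annotated start (bases -16 to -7) and that of Rpl13a after it (bases 3 to 16). Such runs need not begin the message, so the share with a run is not a count of TOP messages. Rplp1, Rpl32, Rpl30, Rpl23a, Rpl36, Rpl29, Rpl6l, Rpl17 and Rpl21 were not matched.

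Array medians over all probe sets ran from 5.90 to 6.07 on the log2 scale, and correlations between arrays from 0.981 to 0.993. The number of arrays limits the precision, and the series' own description warns that its tables are incomplete. Epha4 had no named probe set, so the genotype labels could not be checked on its level. Of 36 marker genes in 7 cell type lists, 4 were on a named probe set. The neuronal marker Map2 stood between 11.7 and 11.8 on every array, and the haemoglobin genes Hba-a1, Hba-a2 and Hbb-bs shared probe sets with other symbols. No marker of astrocytes, oligodendrocytes, microglia, endothelium or choroid plexus had a named probe set. Differences in cell makeup were therefore not tested, and in bulk tissue fewer cells of a type cannot be told apart from less RNA per cell.

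Ribosomal protein probe sets were brighter and varied less than all probe sets together, of which 6265 of 8751 carried no symbol. Their median level was 9.21 on the log2 scale, 9.41 for the large and 9.16 for the small subunit, against 5.96 over all probe sets. Only 4 of the 81 lay below that overall median, those of Rpl30, Rpl24, Rpl9 and Rpl10, and each of these genes had another, brighter probe set. The median standard deviation within groups was 0.10 for the large and 0.11 for the small subunit, against 0.17 over all probe sets. It was 0.08 among the 40 members above the members' median level and 0.15 among the other 41, so the dimmer members had the larger spread within groups. Probe sets of equal level outside the members were not compared, so whether the smaller spread goes with the higher level alone was not tested. Levels of different probe sets also carry their own probe affinities, and are given here to describe the signal rather than to rank messages.

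The brightest large subunit probe set was 17490626, which carries Rpl13a and the small nucleolar RNA gene Snord32a of its intron, at a mean level of 13.11 and an SD of 0.06 within groups. The brightest small subunit probe set was 17386692 of Rps6, the S6 kinase substrate. Its levels were 12.34 ± 0.02 (SD, n = 4) in wild-type controls, 12.31 ± 0.04 (n = 6) in sleep-deprived wild type, 12.25 ± 0.10 (n = 4) in knockout controls and 12.28 ± 0.05 (n = 5) in sleep-deprived knockout. All 4 groups overlapped in this Rps6 probe set, over a range of 12.11 to 12.37. A second, dimmer probe set of Rps6 (17427003, mean level 6.68) also carries a pseudogene symbol. For genotype after sleep deprivation it gave a log2 change of -0.23, against -0.04 for the brighter one. For genotype in controls these values were -0.03 and -0.08. The response of the dimmer Rps6 probe set to sleep deprivation was -0.14 among knockout arrays and 0.06 among wild-type arrays. The dimmest large subunit probe set was 17535774, which carries Rpl10 beside Snora70, at 3.45. A second probe set of Rpl10, 17526805, lay at 11.14. Rpl10 encodes one of the last proteins to join the large subunit. The dimmest small subunit probe set was 17495404 of Rps13, which it shares with a pseudogene symbol, at 6.07. The widest spread within groups was found for Rpl30 (probe set 17316390, SD 0.32 at a level of 8.17) and Rps2 (17334404, SD 0.36 at 8.19). Both of these probe sets carry 2 further symbols of predicted genes.

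**Figure D1:**
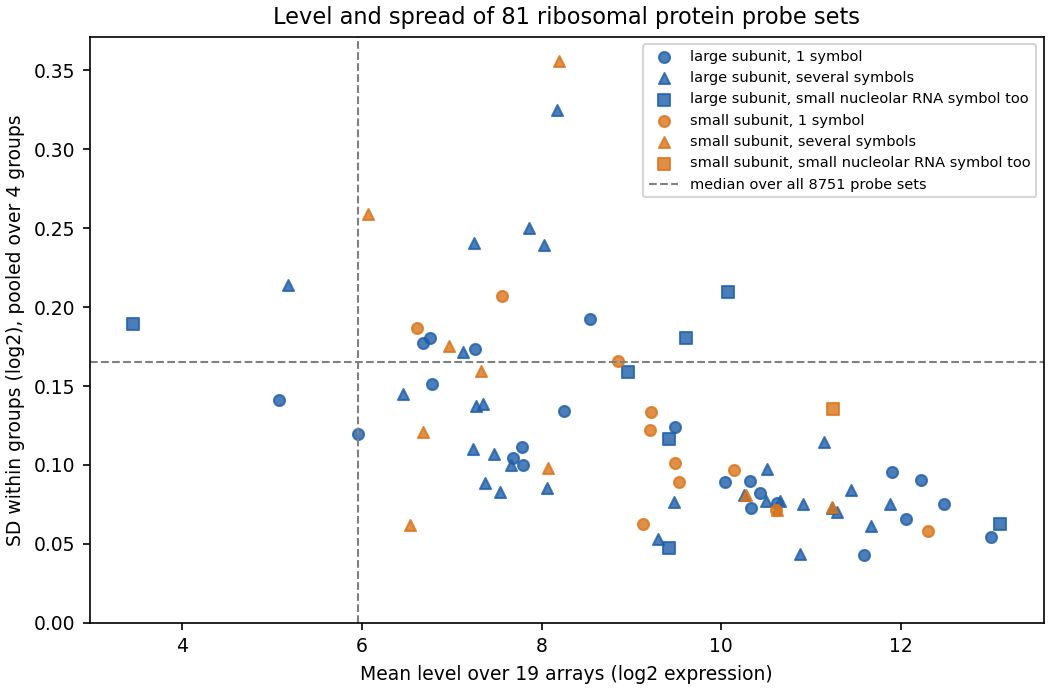
Mean log2 level over 19 arrays (x axis) against the standard deviation within groups, pooled over the 4 groups (y axis), for the 59 large (blue) and 22 small (orange) subunit probe sets, with marker shape for the symbols a probe set carries and dashed lines at the medians of all 8751 probe sets. Most members lie to the right of the vertical line and below the horizontal one, and the widest spreads (0.36 for Rps2 and 0.32 for Rpl30) belong to probe sets with several symbols.

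Of the 81 probe sets, 34 carried the ribosomal symbol alone, 39 carried several symbols and 8 also carried a small nucleolar RNA. The signal of a probe set with several symbols cannot be assigned to one gene, and probes shared with pseudogene copies make such values uncertain for the named gene. Of the 43 genes, 23 had more than 1 distinct probe set. Their changes often differed in sign. All probe sets of a gene had the same sign in 9 of 23 genes for the wild-type response to sleep deprivation and in 9 for the knockout response. The same held in 13 genes for genotype in controls and in 9 for genotype after sleep deprivation. Rpl13 is an example with 4 probe sets. For genotype in controls their log2 changes were 0.03, 0.26, -0.13 and -0.14, and for the interaction -0.02, -0.38, 0.50 and 0.30. The highest and the lowest of the 4 probe sets of Rpl13 thus lay on opposite sides of 0 in both comparisons.

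Across the 7 comparisons of the design, 0 of the 81 ribosomal protein probe sets passed an adjusted p of 0.05 (limma, Benjamini-Hochberg over 8751 probe sets). The shares of all probe sets that passed were 0% for sleep deprivation in wild type, 0.263% for sleep deprivation in the knockout and 0.263% for sleep deprivation averaged over genotypes. They were 0% for genotype in controls, 1.68% for genotype after sleep deprivation, 0.0114% for genotype averaged over conditions and 0.0686% for the interaction. Missing the threshold does not show that levels were equal, so the 95% confidence intervals (not adjusted for the number of tests) bound what could have gone undetected. For sleep deprivation averaged over genotypes, the interval of all 81 lay within a 1.5-fold change in either direction, and that of 73 within a 1.2-fold change. For genotype averaged over conditions, these counts were 81 and 70. Within one genotype or condition, the intervals of 76 to 78 of the 81 lay within 1.5-fold. The interaction was bounded less tightly, with 67 of 81 within 1.5-fold and 25 within 1.2-fold.

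Sleep deprivation for 6 h left the wild-type levels of these genes close to the control levels. The median log2 change was -0.010 over the large and -0.030 over the small subunit probe sets, against 0.017 over all probe sets. Of the 81 members 31 had a positive and 50 a negative change (24 and 35 large, 7 and 15 small), whereas 55.7% of all probe sets had a positive one. Quantile normalization turned the members' count to 46 positive and 35 negative, and leaving out 1 wild-type array moved the large subunit median between -0.023 (without sleep-deprived replicate 3) and -0.0031 (without control replicate 2). At an unadjusted p of 0.05, 4 of the 81 members (4.94%) passed, against 7.80% of all probe sets. The group ranges of 0 members were apart, where 1.63% of all probe sets had separate groups.

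Rpl34, a protein of the large subunit, had the smallest p in wild type. Its probe set 17410381 read 7.62, 7.64, 7.71 and 7.56 in the 4 controls, and from 7.68 to 7.93 with a median of 7.81 in the 6 sleep-deprived arrays. Only the highest control overlapped the sleep-deprived range of Rpl34. The log2 change was 0.18 (SE 0.08, adjusted p = 0.62), and a second probe set of the gene, 17459453, gave 0.02. Rpl21 followed, also of the large subunit, through a probe set shared with 5 predicted-gene symbols (17444802). Its controls read 8.02, 8.27, 8.09 and 8.07, and its sleep-deprived arrays ran from 6.997 to 8.20 with a median of 7.86. The lowest Rpl21 value came from 1 array, wild-type sleep-deprived replicate 1, and the log2 change was -0.34 (SE 0.15, adjusted p = 0.62). Without that array it was -0.19 (adjusted p = 0.85). The other 4 probe sets of Rpl21 gave changes between -0.08 and -0.01.

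In the knockout, 41 of 59 large and 14 of 22 small subunit probe sets had a positive change after sleep deprivation, but 1 control array decided this balance. The medians were 0.040 and 0.030, against 0.012 over all probe sets. Without knockout control replicate 2 the count over all 81 members went from 55 positive and 26 negative to 41 and 40, and the members' median to 0.005. Quantile normalization of the arrays turned the count to 33 positive and 48 negative. An unadjusted p of 0.05 was passed by 7 of 81 members (8.64%), against 11.8% of all probe sets.

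The smallest p in the knockout belonged to a probe set of Rpl23a, whose protein sits beside the exit of the peptide tunnel and receives the factors that target new proteins. Probe set 17308783, shared with 2 predicted-gene symbols, read 7.05, 6.96, 6.85 and 7.15 in knockout controls and 7.93, 7.86, 7.70, 7.07 and 7.28 after sleep deprivation. Of the 5 sleep-deprived arrays, 4 lay above every control, and 1 lay within the control range. The log2 change was 0.56 (SE 0.15, adjusted p = 0.13), and it became 0.69 (adjusted p = 0.037) without knockout sleep-deprived replicate 4, the low array, in a fit that called 0.194% of all probe sets. The 3 other probe sets of Rpl23a, brighter than this one, gave changes of 0.04 each.

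Rplp1, the acidic stalk protein that brings elongation factors to the ribosome, came next. Its single-symbol probe set 17527927 read 11.58, 11.71, 11.63 and 11.62 in knockout controls and 11.45, 11.50, 11.46, 11.50 and 11.48 after sleep deprivation. Every sleep-deprived knockout array was below every knockout control. The change in Rplp1 was small, -0.16 on the log2 scale (SE 0.05, adjusted p = 0.24), and a second, noisier probe set (17496653) gave 0.05. In all, the groups were apart for 5 members in the knockout, higher for Rps15a, Rpl13 (17513856) and Rpl10 (17526805) and lower for Rpl13a (17490608) and Rplp1, where 4.39% of all probe sets had separate groups.

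Averaged over both genotypes, the effect of sleep deprivation had a median near 0 in both subunits. It was 0.0008 over the large and 0.0040 over the small subunit probe sets, against 0.015 over all probe sets, with 44 positive and 37 negative members. Without knockout control replicate 2 the medians were -0.017 and -0.020, with 33 positive and 48 negative members, and with quantile normalization or median centring the count was 31 and 50. Only 2 members (2.47%) passed an unadjusted p of 0.05, against 7.93% of all probe sets. They were Rpl34 (17410381; log2 change 0.15, SE 0.05, adjusted p = 0.47) and Rpl24 (17326250; 0.12, SE 0.05, adjusted p = 0.48), whose product reaches across to the small subunit. Levels of Rpl24 were 9.47, 9.41, 9.39 and 9.44 in wild-type controls and 9.44 to 9.69 (median 9.53) after sleep deprivation. In the knockout they were 9.41, 9.34, 9.29 and 9.46 in controls and 9.58, 9.60, 9.54, 9.42 and 9.43 after sleep deprivation. The groups of this Rpl24 probe set overlapped in both genotypes, and it also carries the symbol of the neighbouring transcription factor gene Zbtb11. A second, dim probe set of Rpl24 (17326241, mean level 5.17), which carries the same 2 symbols, gave -0.045 averaged over genotypes.

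**Figure D2:**
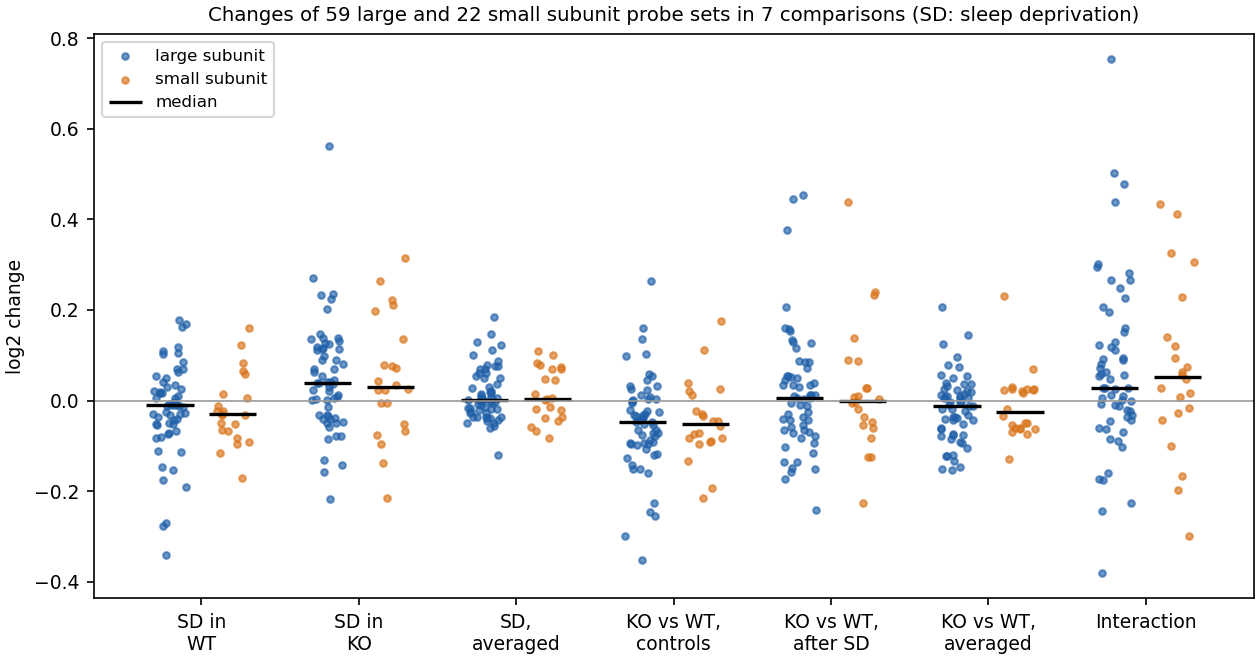
Log2 change (y axis) of each of the 59 large (blue) and 22 small (orange) subunit probe sets in each of the 7 comparisons (x axis), with black bars at the medians; SD on the axis means sleep deprivation. The medians run from -0.051 to 0.052, most points lie near 0, and the highest points are the Rpl23a probe set 17308783 at 0.56 for sleep deprivation in the knockout and 0.75 for the interaction.

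Knockout and wild-type controls differed little in ribosomal protein messages. Of the 81 members, 58 had a lower mean in the knockout and 23 a higher one, with medians of -0.047 over the large and -0.051 over the small subunit, against 0.015 over all probe sets. This balance depended in part on 1 array: without knockout control replicate 2 it was 44 lower and 37 higher, with a median of -0.010. The large subunit median was then -0.009, whereas the small subunit median was still -0.031. With median centring of all arrays the count was 71 lower and 10 higher, and with quantile normalization 50 and 31. At an unadjusted p of 0.05, 3 members passed (3.70%), against 5.44% of all probe sets.

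The smallest p in controls belonged to Rpl13 (17506502, shared with a pseudogene of Rpl13), at 7.27, 7.05, 7.15 and 7.10 in wild type and 7.45, 7.56, 7.10 and 7.52 in the knockout. One knockout array lay among the wild-type values of this Rpl13 probe set, and the log2 change was 0.26 (SE 0.10, adjusted p = 0.87). The Rpl21 probe set 17444802 followed, with knockout values of 7.69, 7.86, 7.77 and 7.72, all below the 4 wild-type controls given above. Its log2 change was -0.35 (SE 0.16, adjusted p = 0.87). In all, 4 members had separate groups in controls, each lower in the knockout (2 probe sets of Rpl23a, Rpl21 and Rpl13a), where 3.68% of all probe sets had separate groups.

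Genotype after sleep deprivation was the comparison in which members came closest to the threshold. The medians were 0.006 over the large and -0.0002 over the small subunit, against 0.009 over all probe sets, with 43 positive and 38 negative members. Quantile normalization made this 25 positive and 56 negative, and median centring 33 and 48. At an unadjusted p of 0.05, 13 of 81 members passed (16.05%), a share near the 15.4% of all probe sets. Of these, 7 were higher and 6 lower in the knockout, where 10.4% and 5.01% of all probe sets were.

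Rpl32, of the large subunit, had the smallest p. Its single-symbol probe set 17469936 ran from 9.97 to 10.28 with a median of 10.19 in sleep-deprived wild type, and read 9.80, 10.04, 9.91, 9.84 and 9.95 in sleep-deprived knockout. Of the 5 knockout arrays of Rpl32, 4 were below every wild-type array. The log2 change was -0.24 (SE 0.06, adjusted p = 0.0641). The control groups of Rpl32 overlapped, at 10.04 ± 0.03 (n = 4) in wild type and 10.05 ± 0.06 (n = 4) in the knockout.

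Rps13, of the small subunit, had a change of the opposite sign. Its single-symbol probe set 17493182 ran from 7.12 to 7.91 with a median of 7.35 in sleep-deprived wild type, and read 7.86, 7.77, 7.88, 7.91 and 7.72 in sleep-deprived knockout. One wild-type array, replicate 3, reached the knockout range, and the other 5 lay below it. The log2 change in Rps13 was 0.44 (SE 0.12, adjusted p = 0.0670), while a second, dimmer probe set of the gene (17495404) gave -0.12.

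Rplp1 and Rpl23a, named above for the knockout, had the next smallest p. The 2 comparisons share the sleep-deprived knockout arrays, so these values are not a second measurement. Rplp1 ran from 11.55 to 11.70 with a median of 11.67 in sleep-deprived wild type, above all 5 knockout arrays, and its fitted change was -0.17 on the log2 scale (SE 0.05, adjusted p = 0.0803). The Rpl23a probe set 17308783 ran from 6.92 to 7.499 with a median of 7.05 in sleep-deprived wild type, overlapping 2 knockout arrays, with a change of 0.45 (SE 0.14, adjusted p = 0.0920). The other probe sets of both genes did not share these values: the second of Rplp1 (17496653) gave 0.13, and the 3 brighter ones of Rpl23a gave -0.01 to 0.05. Besides Rplp1, only Rpl37a had separate groups after sleep deprivation, also lower in the knockout, where 2.05% of all probe sets had separate groups.

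The count of 0 members called after sleep deprivation depended on single arrays. Without wild-type sleep-deprived replicate 3 it was 5, namely Rpl23a (0.53, adjusted p = 0.029), Rpl32 (-0.28, adjusted p = 0.019), Rps13 (0.54, adjusted p = 0.0035), Rplp1 (-0.19, adjusted p = 0.038) and Rps24 (0.32, adjusted p = 0.027). In that fit 3.41% of all probe sets were called, against 1.68% with all arrays. Rps24 encodes a small subunit protein that is mutated in some patients with Diamond-Blackfan anaemia. Without knockout sleep-deprived replicate 2 it was 1 (Rpl32, adjusted p = 0.049), and without replicate 4 of that group 1 (Rpl23a, adjusted p = 0.025), where 1.39% and 1.29% of all probe sets were called. The members called in the first case went in both directions, 3 higher and 2 lower in the knockout.

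**Figure D3:**
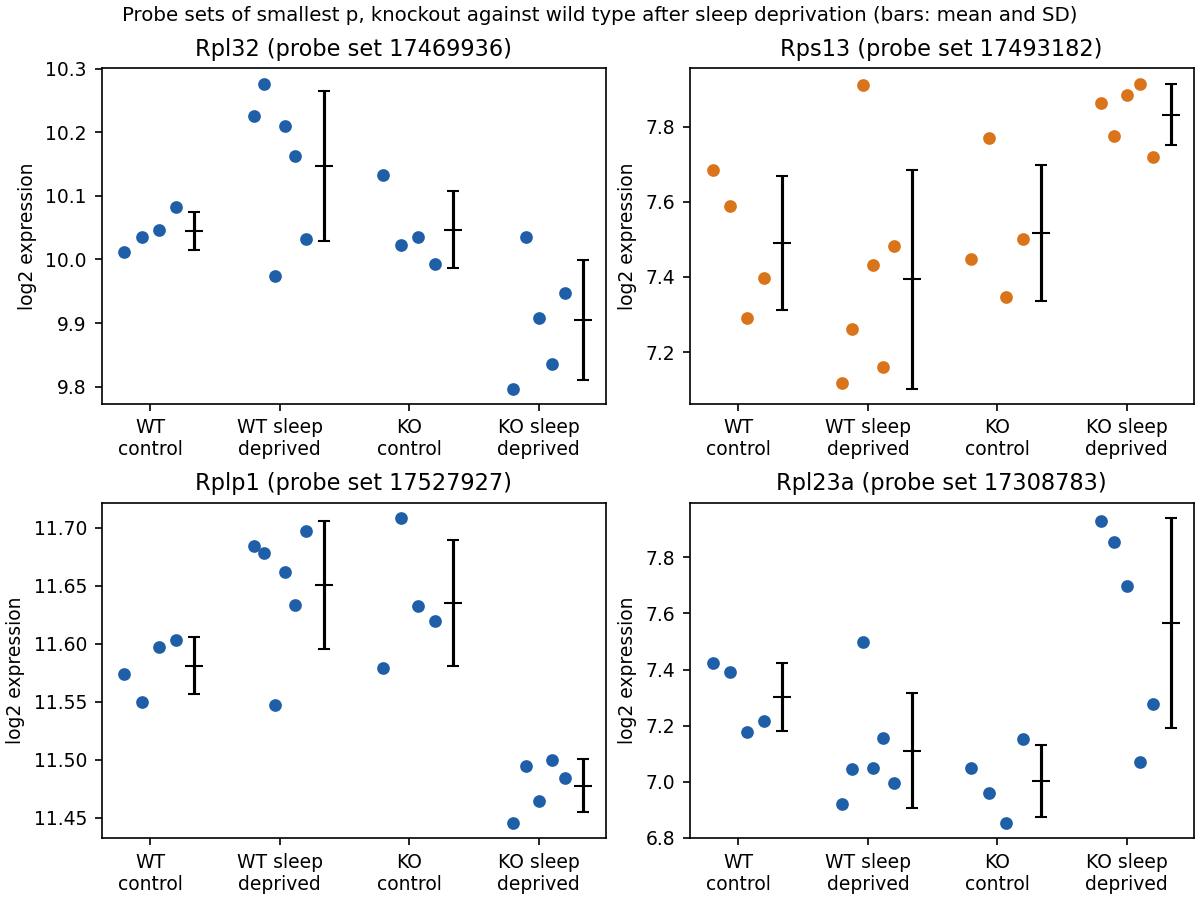
Log2 expression (y axis) on each of the 19 arrays for the 4 members of smallest p in the comparison of genotypes after sleep deprivation, by group (x axis), with bars at the group mean and SD; each panel has its own y axis, which does not start at 0. Rplp1 in sleep-deprived knockout (11.45 to 11.50) lies below all other groups, whereas in Rpl32, Rps13 and Rpl23a the sleep-deprived knockout arrays overlap at least 1 other group.

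Averaged over conditions, genotype gave 35 members a positive and 46 a negative value, with medians of -0.011 over the large and -0.026 over the small subunit, against 0.015 over all probe sets. Centring turned this to 15 and 66, and quantile normalization to 26 and 55. At an unadjusted p of 0.05, 6 members passed (7.41%), against 8.73% of all probe sets. Rpl37a, a zinc-binding protein of the large subunit, had the smallest p. Its probe set 17288695, which also carries Mir682, read 10.27, 10.44, 10.35 and 10.34 in wild-type and 10.33, 10.02, 10.21 and 10.23 in knockout controls. After sleep deprivation it ran from 10.26 to 10.44 (median 10.30) in wild type and read 10.17, 10.23, 10.13, 10.10 and 10.16 in the knockout. The log2 change of Rpl37a was -0.15 (SE 0.05, adjusted p = 0.32), with overlap in controls and none after sleep deprivation. A dim probe set of Rpl30 (17316378, mean level 5.95) gave -0.15 (SE 0.06, adjusted p = 0.48), while the widest-spread probe set of that gene (17316390) gave 0.21.

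The interaction asks whether sleep deprivation acted differently in the 2 genotypes. Over the members, the median difference of responses was 0.028 for the large and 0.052 for the small subunit, against -0.003 over all probe sets, with 52 positive and 29 negative values. Without knockout control replicate 2 these counts were 39 and 42 and the members' median -0.001, and with quantile normalization 30 and 51. At an unadjusted p of 0.05, 9 of 81 passed (11.1%), a share near the 11.5% of all probe sets. Rpl23a (17308783) had the smallest p, with a change of -0.19 in wild type and 0.56 in the knockout, a difference of 0.75 (SE 0.21, adjusted p = 0.21). Rplp1 (17527927) was next, with 0.07 in wild type and -0.16 in the knockout, a difference of -0.23 (SE 0.08, adjusted p = 0.26). The 3 other probe sets of Rpl23a gave differences of 0.08 to 0.11.

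Large and small subunit probe sets deviated in the same direction on nearly every array. For each array, the deviation of every member from its own mean over the 19 arrays was taken, and the median was found for each subunit. The 2 medians had the same sign on 18 of 19 arrays, above 0 on 11 and below 0 on 7. In the group means, the large subunit median was 0.014 ± 0.006 (SD, n = 4) in wild-type controls, 0.006 ± 0.040 (n = 6) in sleep-deprived wild type, -0.030 ± 0.075 (n = 4) in knockout controls and 0.003 ± 0.030 (n = 5) in sleep-deprived knockout. The small subunit gave 0.029 ± 0.017, 0.002 ± 0.043, -0.018 ± 0.053 and -0.006 ± 0.046 in the same order. Over all probe sets the median deviation was -0.013 ± 0.009, -0.002 ± 0.023, -0.003 ± 0.023 and 0.011 ± 0.022 in these groups. On many single arrays the median over all probe sets had the opposite sign to the members. On knockout sleep-deprived replicate 5 it was 0.050, against -0.028 (large) and -0.058 (small). On others the sign was the same, as on knockout control replicate 2 (-0.024 over all probe sets). Whether other probe sets of similar level deviated along with the members was not tested. The groups overlapped in both subunits, and the difference between the subunits' medians averaged from -0.015 to 0.009 over the 4 groups, within its SD of 0.017 to 0.041.

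One array stood lowest for these genes. On knockout control replicate 2 the large subunit median was -0.139 and the small subunit median -0.073, the lowest of all 19 arrays for both. The next lowest were -0.050 (large, wild-type sleep-deprived replicate 2) and -0.058 (small, knockout sleep-deprived replicate 5). The outlier check given near the end covered both medians and did not mark knockout control replicate 2. There, 62 of the 81 members lay below their own mean (46 large, 16 small), and 27 had their lowest value of all arrays, against 9.92% of all probe sets. Among all probe sets 56.5% lay below their own mean on that array. The next array by this count, wild-type sleep-deprived replicate 1, held the lowest value of 12 members. The part of RNA quality or cell makeup in these values was not tested.

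**Figure D4:**
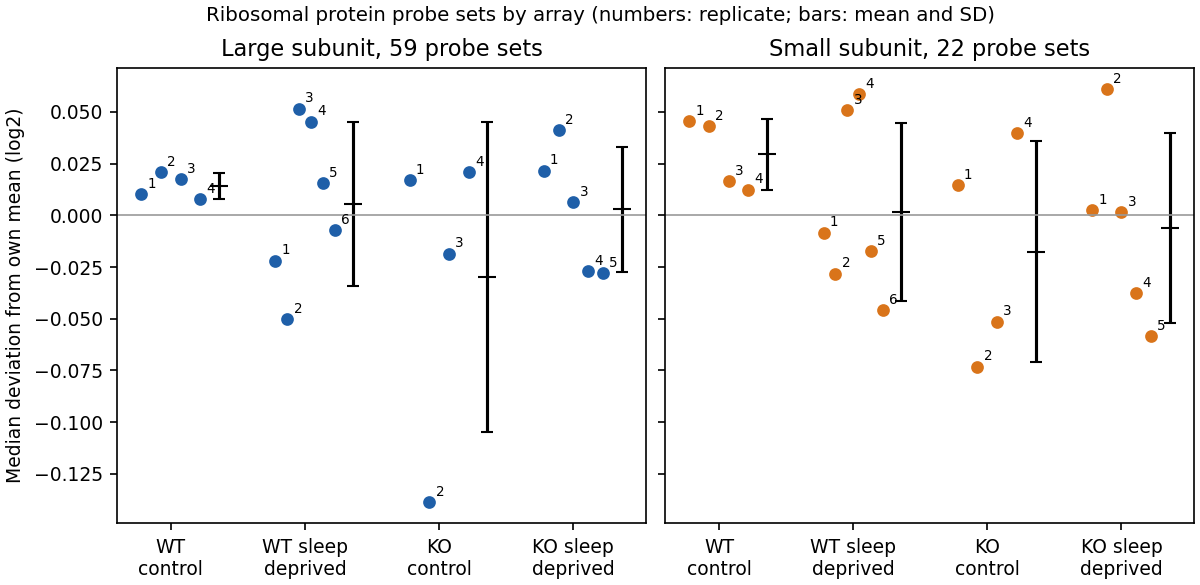
Median deviation of the large (left, 59) and small (right, 22) subunit probe sets from their own means over all arrays, in log2 units (y axis), for each array by group (x axis), with replicate numbers beside the points and bars at the group mean and SD. Knockout control replicate 2 lies lowest in both panels, at -0.139 and -0.073, and the other arrays lie between -0.058 and 0.061.

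Other genes of the translation machinery were read from 8 lists, chosen with earlier results of these data known, and 38 of their genes had a probe set (46 distinct probe sets). In 1 list only Rpl36al had probe sets, and its 2 are already counted above under Rpl36a. This leaves 44 probe sets in 7 lists that are not members. None of the 308 tests of these 44 over the 7 comparisons passed, with a smallest adjusted p of 0.058. The 13 probe sets of 11 mitochondrial ribosomal proteins, which build the separate ribosome of that organelle, had 8 positive and 5 negative changes with sleep deprivation averaged over genotypes (median 0.029). Mrps6, of its small subunit, had a change of 0.18 (SE 0.04, adjusted p = 0.083). The 9 probe sets of 8 translation factors had a median of 0.006 in that comparison, and Eef1a1, which delivers aminoacyl-tRNA and is itself a TOP message, had 0.20 (SE 0.06, adjusted p = 0.23) on probe set 17547730, which carries 2 symbols. Its brighter, single-symbol probe set 17547728 had -0.02. The 10 probe sets of 7 ribosome-associated chaperones and targeting genes had 9 positive and 1 negative change (median 0.091), with Hspa8, a chaperone of nascent chains, at 0.20 (SE 0.05, adjusted p = 0.15) and its other 2 probe sets at 0.20 and 0.12. Of these 10, 5 were positive and 5 negative in wild type (median 0.006), and 9 and 1 in the knockout (median 0.134). Between controls, 1 was higher and 9 lower in the knockout. How far these counts rest on knockout control replicate 2 was not tested. Over all probe sets the median for sleep deprivation averaged over genotypes was 0.015, and 58.1% were positive.

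In the interaction, Riok2, a kinase needed for small subunit maturation, had a difference of responses of 0.55 (SE 0.17, adjusted p = 0.23), and the 6 ribosome biogenesis probe sets had 4 positive and 2 negative differences (median 0.205), down to -0.30 for Bms1, which acts in small subunit processing, and -0.14 for Nol11. Sec61g, of the channel that takes new proteins into the endoplasmic reticulum, had 0.38 (SE 0.13, adjusted p = 0.28) on probe set 17548226 and 0.06 on 17260732. For genotype averaged over conditions, the smallest p of their lists were those of Mrpl53 (-0.15, adjusted p = 0.39, with -0.05 on its second probe set) and Pabpc4 (0.17, adjusted p = 0.49), a poly(A)-binding protein. The lists of aminoacyl-tRNA synthetases and of the mTOR pathway had 2 probe sets each, with Nars2 and Akt1s1 as the genes of smallest p. Nars2 gave 0.14 for genotype averaged over conditions (adjusted p = 0.57), and Akt1s1 gave 0.04 (adjusted p = 0.84). For Taf1d of the biogenesis list, Hnrnpa1 of the TOP messages and Srprb of the targeting genes, the genotype values were 0.09, -0.08 and -0.09.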

How the data were processed

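Forebrain RNA was isolated with an RNeasy lipid kit and biotin-labelled for Mouse Gene 2.0 ST arrays, as the labels' protocols state. The authors deposited log2 expression values, 1 per probe set and array, from 2.18 to 14.2. The submitters' processing notes name RMA, oligo and limma, without versions. What each was used for, and which genome build, is not given in the sources used here. RMA usually includes background correction and quantile normalization, which can shrink changes shared by most genes.

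Probe sets were named from the platform annotation (1308 with 1 symbol, 1178 with several, 6265 unnamed here). The members and gene lists were chosen with earlier results of these data known, so lists are described by counts and medians without a list test. Groups came from the sample titles. All 8751 probe sets were fitted with limma 3.58.1 (R 4.3.3; lmFit, eBayes) on 4 group means over all 19 arrays without covariates or pseudocount, and two-sided p-values were adjusted by the Benjamini-Hochberg method with a threshold of 0.05. Counts took identical rows once. Scripts were tested on simulated data.

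Named were the 2 members of smallest p in each comparison, the brightest, dimmest and widest-spread member of each subunit, and the gene of smallest p per translation list for the interaction and the averaged effects. Members with separate group ranges, further probe sets of a named gene, the 2 members that followed by p after sleep deprivation and members called without 1 array were named after their values were seen. Alternatives covered normalization, centring, identical, multiply annotated and dim rows, the prior variance, array weights, the arrays fitted, a block for the replicate number, the threshold, 1 probe set per gene and leaving out each array. Figures were made in Python 3.11.15 using matplotlib 3.10.9. Array counts limit the precision, and arrays give no read depth.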

Additional observations from a re-analysis of the deposited data

Results flagged for a closer look

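One value stood far from the others of its group. In wild-type sleep-deprived replicate 1, the Rpl21 probe set 17444802 read 6.997, while the nearest array of that group read 7.84 and the highest 8.20, so that the gap took up 0.706 of the group's range. Of 72 groups of arrays examined for the named members and the subunit medians, 1 was so marked, and chance alone marks about 1 in 20.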

How the results depend on the processing

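No fitted member passed an adjusted p of 0.05 under any alternative in 5 of the 7 comparisons, and no named member changed sign in its comparison under any alternative. For genotype after sleep deprivation, 0 members became 4 at a threshold of 0.10, 3 with quantile normalization, 1 with median centring, 2 with only single-symbol probe sets, 3 without the dimmest 40% of probe sets, 2 with a trended robust prior, 1 with array weights, and 0 to 5 when 1 array was left out (5 without wild-type sleep-deprived replicate 3). The shares of all probe sets called in these 7 settings were, in the same order, 3.86%, 1.52%, 1.25%, 2.14%, 3.39%, 2.02% and 1.87%, and 3.41% without that array. Rpl32 was called in 7 of these fits (quantile normalization, adjusted p = 0.028), Rplp1 in 5 and Rps13 in 3. For sleep deprivation in the knockout, leaving out 1 array gave 0 to 1.

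Quantile normalization moved 6 medians by more than the spread between arrays. They became -0.018 (large) and -0.027 (small) for sleep deprivation in the knockout, -0.059 and -0.074 for genotype after sleep deprivation, and -0.038 and -0.039 for the interaction. Leaving out 1 array gave a small subunit interaction median of -0.0036 to 0.077, lowest without knockout control replicate 2. The other 582 recomputed counts and medians moved by less than these limits, and the cause of the shifts was not tested.

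With the replicate number as a block, 0 members were called in each of the 7 comparisons. The share of all probe sets called in that fit is not given here, so this count does not set the members apart from other probe sets. Same-numbered arrays did not deviate together (25 pairs, r from -0.22 to 0.078), and 0 of 19 arrays correlated best with an array of its own number. The sample titles do not say what the numbers stand for, and these correlations cannot exclude a pairing of small effect. Dim probe sets limit what these arrays can show, since their spread within groups was larger.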
